A study of Mus musculus with 12 samples.

Results

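The genes described here are 50 genes of G2, mitosis and cell division, followed in activated mouse CD8+ T cells. They were taken as the rows whose gene identifier carries 1 of 50 listed symbols in GENCODE M21, the mouse gene annotation on build GRCm38. All 50 were found among the 55487 identifiers counted, and all 50 passed the low-count filter in both comparisons, with between 1109 and 161949 counts per gene and sample. The cells were OT-1 CD8+ T cells. OT-1 mice carry a transgenic T cell receptor that recognises an ovalbumin peptide, so these cells share 1 specificity. Female and Male (3 samples each) were splenic cells of each sex, given anti-CD3/CD28 beads and recombinant IL2 for 3 days. WT and KD (3 samples each) were male cells from a separate batch, electroporated and then kept in culture for 3 days. KD received Cas9 with a guide RNA to knock down Kdm5d, the Y-linked histone H3 lysine 4 demethylase, and WT received the guide RNA alone. WT cells thus carried no Cas9, and the reduction of Kdm5d and the presence of Cas9 cannot be told apart in KD against WT. The genetic background and age of the mice are not given in the sources used here, nor is whether samples of a group came from separate mice, so the p-values below measure the spread between these samples, which may be technical.

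Entry into mitosis is driven by the kinase CDK1 bound to cyclin A2 and then to B-type cyclins, switched on by CDC25 phosphatases and reinforced by Polo-like and Aurora kinases. Condensin and topoisomerase II compact and untangle the chromosomes, kinesins and kinetochores place them on the spindle, and the spindle checkpoint holds back CDC20 and the anaphase-promoting complex (APC/C) until each is attached. Most of the genes are transcribed late in the cell cycle, largely through B-MYB and FOXM1 with the MuvB complex. Many are low in resting T cells, of which this series has none. A CD8+ T cell stimulated through its receptor divides repeatedly for several days and expresses these genes at high levels.

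Promoters are shown for 6 members with large changes in 1 comparison or both, because a pair of short elements is shared by many promoters of this class. These are the cell cycle genes homology region (CHR; TTTGAA or TTCGAA) and the CCAAT box (CCAAT). RefSeq promoter entries (GRCm38.p6) were matched by symbol for 41 of the 50 members. Each line gives the 150 bases before the annotated start, 5′ to 3′ on the gene's strand, and the capitals mark a CHR, a CCAAT box or an E2F motif (TTTGGCGC, TTTCCCGC, TTTGCCGC or TTTCGCGC) on either strand. Within these bases Cdk1 and Top2a hold both CHR and CCAAT elements and Cdk1 also an E2F motif, the cyclin genes and Plk1 hold CCAAT boxes, and Nusap1 holds none of these letters. From 250 bases before to 50 after the start, Ccnb2 had 2 CHR matches and Plk1 had 1, all outside the printed bases.
Cdk1 (chr10:69352913-69353062, minus strand): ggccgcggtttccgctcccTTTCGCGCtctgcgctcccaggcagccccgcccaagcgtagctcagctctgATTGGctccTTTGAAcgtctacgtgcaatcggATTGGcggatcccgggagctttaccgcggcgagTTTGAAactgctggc
Ccnb1 (chr13:100786487-100786636, minus strand): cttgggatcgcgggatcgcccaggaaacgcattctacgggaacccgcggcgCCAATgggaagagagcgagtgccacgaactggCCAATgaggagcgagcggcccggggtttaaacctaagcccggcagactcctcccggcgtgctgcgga
Ccnb2 (chr9:70421555-70421704, minus strand): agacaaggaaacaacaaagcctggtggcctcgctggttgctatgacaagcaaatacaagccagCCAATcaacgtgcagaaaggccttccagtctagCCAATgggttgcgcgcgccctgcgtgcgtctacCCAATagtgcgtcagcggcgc
Plk1 (chr7:122159285-122159434, plus strand): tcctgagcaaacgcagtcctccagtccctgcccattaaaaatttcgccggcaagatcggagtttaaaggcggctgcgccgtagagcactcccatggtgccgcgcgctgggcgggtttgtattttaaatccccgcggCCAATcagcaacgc
Top2a (chr11:99024190-99024339, minus strand): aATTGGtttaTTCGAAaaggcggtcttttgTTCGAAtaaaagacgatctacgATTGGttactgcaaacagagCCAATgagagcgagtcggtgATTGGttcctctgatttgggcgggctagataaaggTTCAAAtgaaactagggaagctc
Nusap1 (chr2:119618148-119618297, plus strand): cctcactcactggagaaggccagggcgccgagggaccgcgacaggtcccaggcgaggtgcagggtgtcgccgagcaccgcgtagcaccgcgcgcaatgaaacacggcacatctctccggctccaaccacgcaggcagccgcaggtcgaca

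The matched members had 46 promoters of 300 bases, from 250 before to 50 after the start. A CHR on either strand was present in 34 of the 46 (73.9%), against 6316 of all 32851 promoters (19.2%). A CCAAT box was present in 34 of 46 (73.9%), against 37.4% of all, and at least 2 non-overlapping CCAAT boxes in 45.7%, against 11.5%. The E2F motif was present in 4 of 46 (8.7%), against 2.26%. The Top2a promoter had 6 CCAAT boxes and 4 CHR matches, the highest number of each among the members. These are matches of letters, in promoters of which some belong to the same gene, and no binding was measured.

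Depth was between 78748647 and 110803318 counts per sample. Values are in CPM, counts scaled to a common library size of 1000000, scaled with TMM factors within each of the 2 tables. The targeted gene followed its labels: Kdm5d was at 50.9, 49.5 and 52.2 CPM in Male, at 48.4, 51.9 and 52.4 CPM in WT and at 21.4, 21.8 and 22.9 CPM in KD, with 0 to 2 counts in the Female samples. Cd8a was at 499.4 to 621.3 CPM on average in the 4 groups, and Cd4 at 0.195 CPM or less in every sample. Of 8 T and CD8 cell identity genes, 1 was higher and 4 lower in Male, and none was higher and 5 lower in KD. These 62.5% in each comparison passed an edgeR adjusted p under 0.05, against 49.8% and 35.1% of all genes tested. Of genes with a mean of at least 10 CPM, 75.7% and 57.8% passed. The 8 genes summed to 2337 to 2367 CPM in Female and 2327 to 2362 CPM in Male, which overlapped. The sum fell from 2733 to 2791 CPM in WT to 2429 to 2494 CPM in KD without overlap. Lists of 7 B cell, 8 myeloid and 5 dendritic cell markers each summed to 7.8 CPM or less in every sample, with Ms4a1, S100a8 and S100a9 at 0 counts throughout. Of 6 erythroid and platelet markers, Hba-a1 and Hbb-bs were at 0 throughout, and the sum was 2.95 to 3.29 CPM in Female and 1.39 CPM or less in the other groups, with Pf4 and Ppbp the difference. A list of 4 NK cell markers summed to 217.6 to 224 CPM in Female, 322.1 to 332.3 CPM in Male, 558.4 to 581.6 CPM in WT and 455 to 484.6 CPM in KD, nearly all of it Nkg7, which activated CD8+ T cells also express. The 4 CD4 T cell markers summed to 88.7 to 90.8 CPM in Female and 54.9 to 58.7 CPM in Male, and to 45 to 47.3 CPM in WT and 41 to 43.7 CPM in KD, mostly Zbtb7b. The part of these markers in the results below was not tested. In bulk RNA, a change in the share of cells that are dividing and a change in RNA per dividing cell cannot be told apart.

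In Male against Female, 42 of the 50 members were called at an edgeR adjusted p under 0.05, 30 higher and 12 lower in Male, where 49.8% of all 20208 genes tested were called, 23.5% higher and 26.3% lower. Among all genes with a mean of at least 10 CPM, the range of these members, 75.7% were called, 34.6% higher and 41.1% lower. The members' median log2 fold change was 0.18, with a range of -0.50 to 0.87, beside a median of 0.01 over all genes tested. In 43 members the 3 Male samples did not overlap with the 3 Female samples, against 58.3% of all genes; Male lay above in 30 (28.6% of all genes) and below in 13 (29.7%). Among protein-coding genes alone, 33 were higher and 7 lower. The log2 fold change was highest for Ccnb1, Plk1, Cdk1, Ube2c and Ccnb2 and lowest for Ndc80, Cenpk, Smc4, Spc24 and Foxm1.

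In KD against WT, 35 of the 50 members were called, 34 higher and 1 lower in KD, where 35.1% of all 20413 genes tested were called, 16.8% higher and 18.4% lower. Among genes with a mean of at least 10 CPM, 57.8% were called, 24.9% higher and 32.9% lower. The median log2 fold change of the members was 0.14, with a range of -0.33 to 0.45, and that of all genes 0.01. The groups did not overlap in 40 members, against 46.8% of all genes; KD lay above in 36 (23.2% of all genes) and below in 4 (23.6%). The differences were small: none of the 50 changed by more than 0.5 on the log2 scale, and 7 did in Male against Female. Summed over the 50 members, expression was 8797 to 8817 CPM in the Female samples and 9311 to 9381 CPM in the Male samples, and 8443 to 8502 CPM in WT and 9360 to 9421 CPM in KD.

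**Figure D1:**
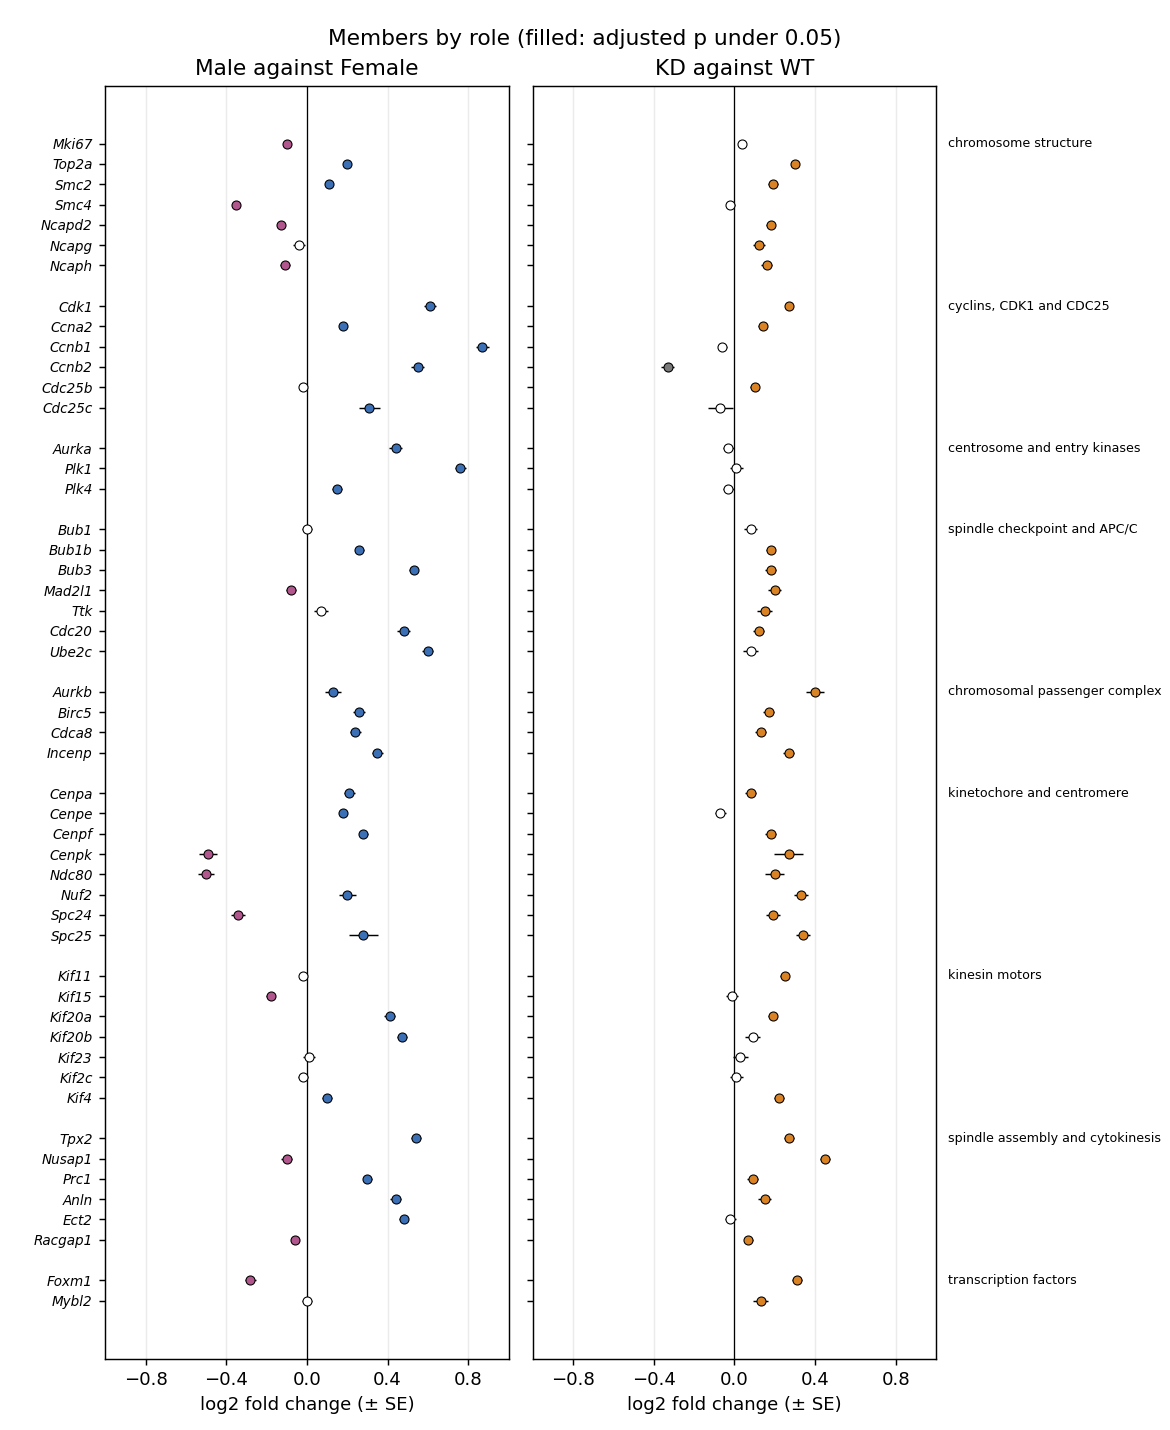
log2 fold change (± SE) of each of the 50 members, ordered by role, in Male against Female (left) and KD against WT (right), n = 3 per group; filled points passed an edgeR adjusted p under 0.05 and are coloured by the group that was higher. The left panel spans -0.50 (Ndc80) to 0.87 (Ccnb1) with points on both sides of 0, and in the right panel Ccnb2 is the single filled point below 0.

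Of the cyclins, CDK1 and CDC25 phosphatases, 5 of 6 were higher in Male and none was lower, and 3 were higher and 1 lower in KD. The shares called, 83.3% and 66.7%, compare with 75.7% and 57.8% of genes with a mean of at least 10 CPM. Of such genes, 34.6% were higher in Male and 24.9% in KD. Ccnb1 (ENSMUSG00000041431, chr13:100778650-100786570, minus strand), the cyclin that carries CDK1 into mitosis, was at 62.7, 64.4 and 64.7 CPM in Female and at 119.7, 119 and 112 CPM in Male. Every Male sample exceeded every Female sample by a wide margin, and the difference of 0.87 on the log2 scale (SE 0.031, edgeR adjusted p = 5.81e-09) was the largest of the 50 log2 fold changes. In WT it was at 165.8, 164.8 and 162.9 CPM and in KD at 160.2, 157.1 and 156.7 CPM, so the KD samples all lay slightly below WT, with a log2 fold change of -0.06 that did not pass (SE 0.022, adjusted p = 0.0651 by edgeR). Ccnb1 shares 27.7% of its 31-base subsequences with other genes' transcripts, Ccnb1-ps foremost, and its counts are uncertain to that extent.

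Ccnb2 (ENSMUSG00000032218, chr9:70407692-70421547, minus strand), the second B-type cyclin, was the single member called higher in Male and lower in KD. It stood at 70, 67.8 and 69.7 CPM in Female and at 98.2, 106.2 and 100.1 CPM in Male (log2 fold change 0.55, SE 0.033, edgeR adjusted p = 2.26e-07). In WT it was at 106.5, 108.2 and 112.2 CPM and in KD at 89.7, 85.4 and 84.3 CPM (log2 fold change -0.33, SE 0.033, edgeR adjusted p = 2.53e-05). Neither pair of groups overlapped: all Male samples were above Female, and all KD samples below WT.

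Cdk1 (ENSMUSG00000019942, chr10:69335146-69352938, minus strand), the kinase itself, was higher in both. It was at 76.4, 75.4 and 76.5 CPM in Female and at 119.5, 112 and 116.8 CPM in Male (log2 fold change 0.61, SE 0.028, edgeR adjusted p = 4.04e-08). The WT samples stood at 139.4, 140.8 and 141.2 CPM and those of KD at 168.4, 169.9 and 169 CPM (log2 fold change 0.27, SE 0.021, edgeR adjusted p = 5.26e-06). The samples of each group lay close together, and neither pair overlapped. Ccna2, cyclin A2, rose less, from 255.2, 254.6 and 257.8 CPM in Female to 293.2, 288 and 289 CPM in Male, and from 308, 304.3 and 311.4 CPM in WT to 333.8, 334.4 and 347.8 CPM in KD. Its log2 fold changes were 0.18 (edgeR adjusted p = 1.81e-05) and 0.14 (edgeR adjusted p = 0.000664). Of the phosphatases, Cdc25c was higher in Male (0.31, edgeR adjusted p = 0.000612) and Cdc25b in KD (0.10, edgeR adjusted p = 0.00578).

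The 3 kinases of the centrosome and mitotic entry were all higher in Male, and none was called in KD against WT. Among genes with a mean of at least 10 CPM, 34.6% were higher in Male and 57.8% were called in KD against WT. Plk1 (ENSMUSG00000030867, chr7:122159439-122169873, plus strand), the Polo-like kinase that activates CDC25 and matures centrosomes, was at 88.1, 85.5 and 83.3 CPM in Female and at 143.2, 146.1 and 145 CPM in Male. The Male samples lay far above Female, by 0.76 on the log2 scale (SE 0.027, edgeR adjusted p = 5.31e-09). Plk1 was at 165.4, 163.9 and 165.4 CPM in WT and at 163.4, 174.5 and 160.1 CPM in KD, which overlapped (log2 fold change 0.01, SE 0.032, edgeR adjusted p = 0.856). Plk1 shares 14.8% of its 31-base subsequences with other genes. Aurka, the Aurora kinase of the centrosome, was at 60.6, 63.3 and 61 CPM in Female and 79.9, 84.5 and 86.3 CPM in Male (log2 fold change 0.44, SE 0.033, edgeR adjusted p = 1.55e-06). It was at 78.7, 79.2 and 78 CPM in WT and 76.6, 76 and 77.6 CPM in KD, where all KD samples lay just below WT without passing (log2 fold change -0.03, edgeR adjusted p = 0.367). Plk4, which licenses centriole duplication, was 0.15 higher in Male on the log2 scale (edgeR adjusted p = 0.000344).

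Of 7 genes of the spindle checkpoint and its target, the APC/C, 4 were higher and 1 lower in Male, and 5 were higher in KD. The share called was 71.4% in each, against 75.7% and 57.8% of genes with a mean of at least 10 CPM. Higher were 57.1% in Male and 71.4% in KD, against 34.6% and 24.9% of such genes. Ube2c (ENSMUSG00000001403, chr2:164769898-164778822, plus strand), the ubiquitin-conjugating enzyme of the APC/C, was at 44.3, 44.1 and 44.1 CPM in Female and at 65.5, 67.1 and 67.7 CPM in Male. These did not overlap and differed by 0.60 on the log2 scale (SE 0.027, edgeR adjusted p = 3.78e-08). The WT values were 72.5, 72.1 and 71.8 CPM and the KD values 72, 78.7 and 77.9 CPM, with KD replicate 1 inside the WT range and no call (log2 fold change 0.08, SE 0.037, edgeR adjusted p = 0.128).

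Cdc20, the APC/C activator that the checkpoint restrains, and Bub3, a checkpoint scaffold, were higher in both comparisons. Bub3 was at 96.7, 99.3 and 97.6 CPM in Female and at 140.5, 141.5 and 143 CPM in Male, and at 166.1, 169.2 and 167.1 CPM in WT and 188.8, 195.7 and 183.2 CPM in KD. Its log2 fold changes were 0.53 (SE 0.023, edgeR adjusted p = 2.36e-08) and 0.18 (SE 0.027, edgeR adjusted p = 0.000542), with no overlap in either. Those of Cdc20, which shares 25.5% of its 31-base subsequences with other genes, were 0.48 (edgeR adjusted p = 4.99e-07) and 0.12 (edgeR adjusted p = 0.00861). Bub1b, which encodes the checkpoint protein BUBR1, went from 157.7, 155.2 and 155.5 CPM in Female to 188.6, 186 and 186.4 CPM in Male. From WT to KD it went from 158.4, 154.5 and 156.6 CPM to 176.3, 177.9 and 179.4 CPM. The groups were apart in both, by 0.26 (edgeR adjusted p = 2.16e-06) and 0.18 (edgeR adjusted p = 8.82e-05) on the log2 scale.

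Mad2l1, the MAD2 protein that binds CDC20, went the other way between the sexes. It was at 110.5, 105 and 107.3 CPM in Female and 102.6, 102.2 and 100.1 CPM in Male (log2 fold change -0.08, SE 0.026, edgeR adjusted p = 0.0251), a call that was lost among protein-coding genes (log2 fold change -0.029, edgeR adjusted p = 0.303) and without Female replicate 1, Female replicate 3 or Male replicate 3 (0.0527 to 0.0852). In WT it was at 96.7, 92.6 and 90.5 CPM and in KD at 110.2, 105.2 and 105.7 CPM, which was higher (0.20, SE 0.033, edgeR adjusted p = 0.000889). Ttk, the checkpoint kinase MPS1, was higher in KD alone by call (0.15, edgeR adjusted p = 0.00871), and Bub1 was called in neither (0.00 and 0.08 on the log2 scale).

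The chromosomal passenger complex was higher throughout: all 4 of its genes were called higher in Male and all 4 in KD. Among genes with a mean of at least 10 CPM, 34.6% were called higher in Male and 24.9% in KD. Incenp (ENSMUSG00000024660, chr19:9872296-9899551, minus strand), the scaffold of the complex, was at 128.1, 122.4 and 123.1 CPM in Female and 157.8, 159.8 and 157.4 CPM in Male (log2 fold change 0.35, SE 0.025, edgeR adjusted p = 9.98e-07). It was at 164.4, 157.5 and 162.7 CPM in WT and 190.4, 200.6 and 194.6 CPM in KD (0.27, SE 0.027, edgeR adjusted p = 2.51e-05). No samples overlapped in either comparison. Aurkb (ENSMUSG00000020897, chr11:69045647-69051664, plus strand), the catalytic kinase, had the larger change in KD: it was at 107.7, 115.9 and 105.5 CPM in WT and 140.5, 154.7 and 140.4 CPM in KD (0.40, SE 0.046, edgeR adjusted p = 6.57e-05). Between the sexes its samples overlapped, at 100, 109.1 and 98.4 CPM in Female and 108.6, 112.6 and 116.3 CPM in Male (0.13, SE 0.041, edgeR adjusted p = 0.0204). That call was lost without Female replicate 1 or 3 and without Male replicate 2 or 3, where the edgeR adjusted p lay between 0.0664 and 0.0894. Birc5 (survivin) and Cdca8 (borealin), which tether the kinase to the centromere, were higher by 0.26 and 0.24 in Male and by 0.17 and 0.13 in KD on the log2 scale.

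The 8 genes of the centromere and kinetochore split between the sexes, 5 higher and 3 lower in Male, whereas 7 were higher and none lower in KD. The shares in Male were 62.5% and 37.5%, against 34.6% and 41.1% of genes with a mean of at least 10 CPM. In KD 87.5% were higher, against 24.9% of such genes. The NDC80 complex, which binds spindle microtubules, has 4 subunits, all among the members. Ndc80 (ENSMUSG00000024056, chr17:71496100-71526857, minus strand) was at 100.9, 93.5 and 100.5 CPM in Female and at 67, 69.6 and 72.2 CPM in Male, the lowest log2 fold change of the 50 at -0.50 (SE 0.038, edgeR adjusted p = 1.48e-06). Spc24 was at 54.4, 52 and 51.9 CPM in Female and 42.7, 42.1 and 40.3 CPM in Male (-0.34, SE 0.035, edgeR adjusted p = 1.66e-05). Male samples of both subunits lay wholly below Female.

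The other subunits were higher in Male. Nuf2 was at 62.8, 59.1 and 57.6 CPM in Female and 71.8, 65.6 and 68.1 CPM in Male (0.20, SE 0.042, edgeR adjusted p = 0.00275). Spc25 was at 28.4, 22.6 and 25.4 CPM in Female and 32.2, 30.1 and 30.5 CPM in Male (0.28, SE 0.072, edgeR adjusted p = 0.00818). Thus the partner genes Ndc80 and Nuf2, and likewise Spc24 and Spc25, had opposite signs, without overlap of the samples in any of the 4.

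In KD all 4 subunits were higher than in WT, with no overlap. Spc25 was at 36.4, 37.8 and 37.8 CPM in WT and 48.3, 46.3 and 47.7 CPM in KD (0.34, SE 0.036, edgeR adjusted p = 3.73e-05), and Nuf2 at 65.4, 60.6 and 61.3 CPM in WT and 78.2, 77.7 and 78.8 CPM in KD (0.33, SE 0.035, edgeR adjusted p = 4.46e-05). Ndc80 was at 40.7, 40.8 and 40.7 CPM in WT and 43.7, 49.3 and 47.7 CPM in KD (0.20, SE 0.046, edgeR adjusted p = 0.00591), and Spc24 changed by 0.19 (edgeR adjusted p = 0.00135). Cenpk, of the inner kinetochore network, was the other gene lower in Male: 27.2, 24.8 and 26.3 CPM in Female against 18.7, 18.3 and 18.5 CPM in Male (-0.49, SE 0.046, edgeR adjusted p = 6.99e-06). In KD it was higher by 0.27 (edgeR adjusted p = 0.0141), a call lost without WT replicate 2 (adjusted p = 0.0562) or KD replicate 3 (adjusted p = 0.061).

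Cenpa, the centromeric histone H3 variant, was at 147.8, 140.6 and 146.4 CPM in Female and 166, 164.4 and 171.3 CPM in Male (0.21, edgeR adjusted p = 0.000104). In KD it was at 151.8, 155 and 148.1 CPM, just above WT at 139.6, 144.2 and 146.1 CPM (0.08, edgeR adjusted p = 0.0409), and this call was lost when any single sample other than KD replicate 3 was left out, with an edgeR adjusted p of 0.056 to 0.172. Cenpf was higher in both comparisons (0.28 and 0.18), and the kinetochore motor Cenpe was higher in Male (0.18, edgeR adjusted p = 5.41e-05) and not called in KD (-0.07, edgeR adjusted p = 0.071).

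**Figure D2:**
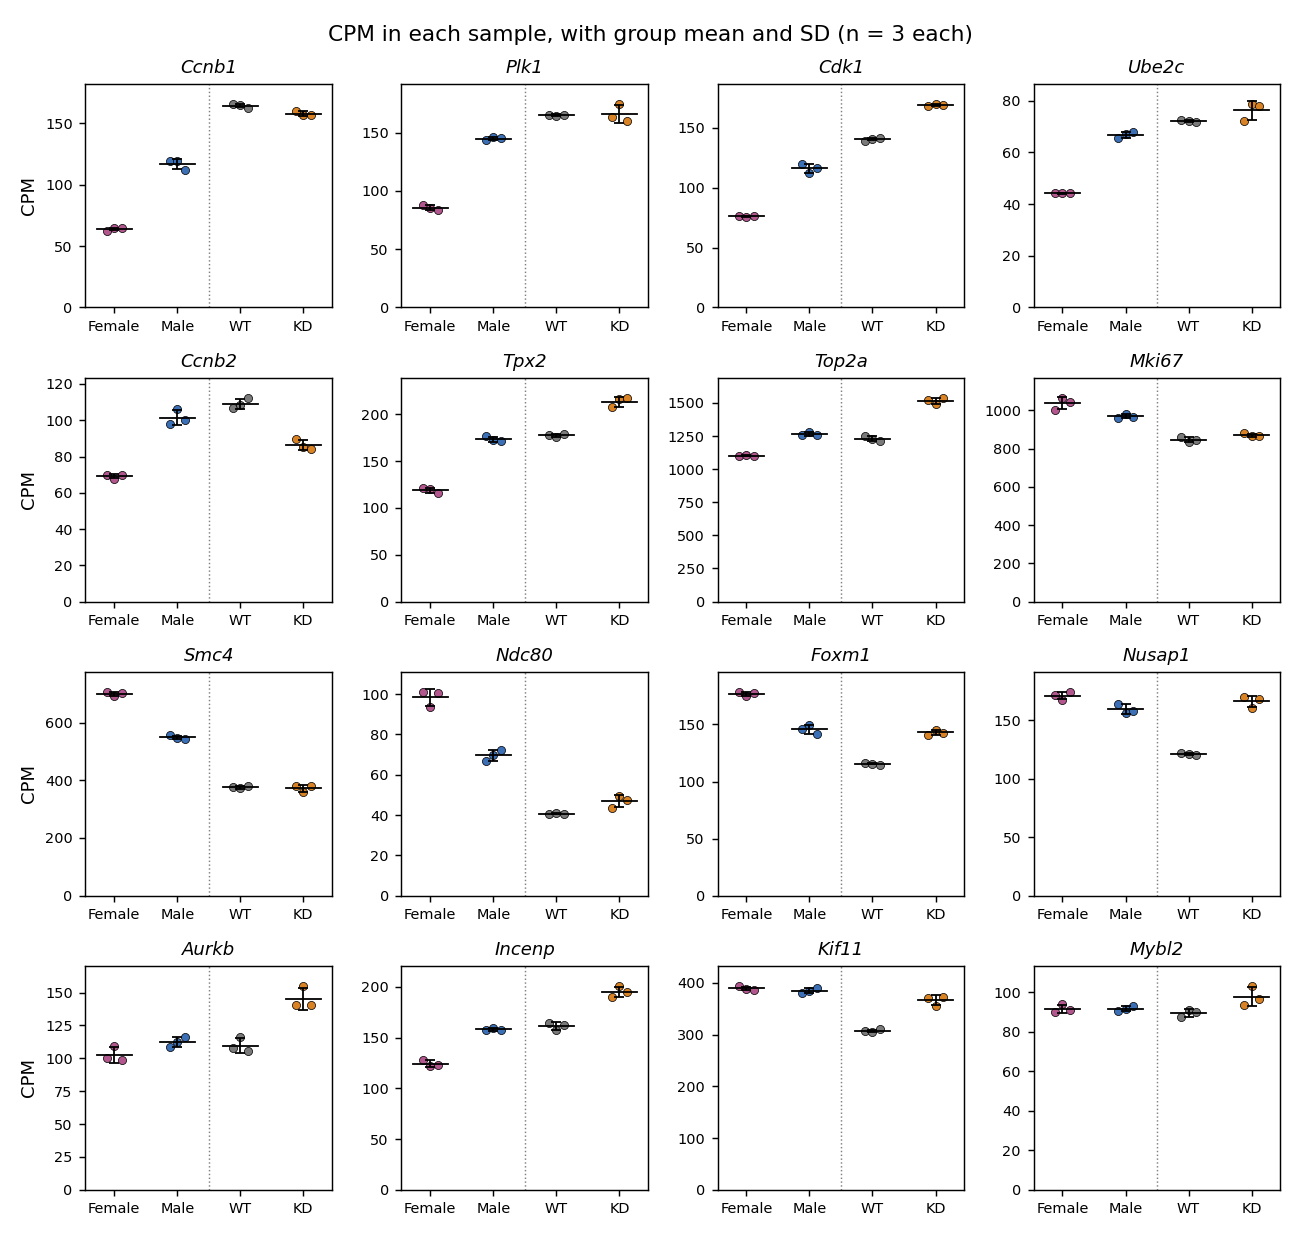
CPM of 16 members in each sample (points), with the group mean (line) and SD (bar), n = 3 per group; the y axis starts at 0 and the dotted line separates the 2 tables, which were scaled separately. Ccnb1 lies at 62.7 to 64.7 CPM in Female and 112 to 119.7 CPM in Male, Ndc80 shows the reverse order, and Nusap1 separates KD from WT.

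Of the 7 genes of chromosome structure, 4 were lower and 2 higher in Male, and 5 were higher and none lower in KD. The shares in Male were 57.1% and 28.6%, against 41.1% and 34.6% of genes with a mean of at least 10 CPM. Of the 4 lower, Mki67 and Ncaph lost the call among protein-coding genes. Top2a (ENSMUSG00000020914, chr11:98992943-99024189, minus strand), topoisomerase II alpha, was the most abundant member per length of transcript in all 4 groups. It was at 1098, 1104 and 1097 CPM in Female and 1258, 1282 and 1255 CPM in Male (0.20, SE 0.013, edgeR adjusted p = 5.68e-07), and at 1251, 1229 and 1213 CPM in WT and 1519, 1492 and 1536 CPM in KD (0.30, SE 0.017, edgeR adjusted p = 4.33e-07). The groups were apart in each. Smc4 (ENSMUSG00000034349, chr3:69004738-69034623, plus strand), an ATPase subunit of condensin, fell from 704.9, 691.7 and 702.5 CPM in Female to 555.4, 547.9 and 543.1 CPM in Male (-0.35, SE 0.016, edgeR adjusted p = 4.35e-08). In WT and KD it overlapped, at 375.1, 371.8 and 381.6 CPM against 378.5, 358.7 and 379.1 CPM (-0.02, SE 0.024, edgeR adjusted p = 0.677). Its ATPase partner Smc2 was higher in Male (0.11, SE 0.020, edgeR adjusted p = 0.000876) and in KD (0.19, SE 0.025, edgeR adjusted p = 0.000226). The condensin I subunits Ncapd2 and Ncaph were lower in Male (-0.13 and -0.11) and higher in KD (0.18 and 0.16), and Ncapg was higher in KD (0.12, edgeR adjusted p = 0.0103).

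Mki67 (ENSMUSG00000031004, chr7:135689784-135716361, minus strand), which encodes the proliferation marker Ki-67, did not follow Top2a. It was at 1003, 1064 and 1046 CPM in Female and 962.4, 980.7 and 966.7 CPM in Male (-0.10, SE 0.021, edgeR adjusted p = 0.00318), a small difference with all Male samples below Female. Among protein-coding genes the calls of Mki67 (-0.044, edgeR adjusted p = 0.0928) and Ncaph (-0.053, edgeR adjusted p = 0.0507) were lost. In WT Mki67 was at 860.8, 835.7 and 844.5 CPM and in KD at 879.3, 863.5 and 866.6 CPM, so KD lay just above WT without passing (0.04, SE 0.016, edgeR adjusted p = 0.101).

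Of the 7 kinesin motors, 3 were higher and 1 lower in Male, and 3 were higher in KD. The shares called, 57.1% and 42.9%, were near those of all genes (49.8% and 35.1%) and below those of genes with a mean of at least 10 CPM (75.7% and 57.8%). Kif11 (ENSMUSG00000012443, chr19:37376403-37421859, plus strand), the motor that separates the spindle poles, overlapped between the sexes at 393.5, 388.2 and 387.4 CPM in Female and 381.1, 383.9 and 391 CPM in Male (-0.02, SE 0.018, edgeR adjusted p = 0.504). In KD it was at 371.2, 355.2 and 373 CPM, above WT at 307.5, 305.8 and 310.1 CPM (0.25, SE 0.022, edgeR adjusted p = 1.18e-05). Kif20b, a motor of the late spindle, showed the converse: 75, 71.8 and 73.6 CPM in Female against 103.1, 101.1 and 102 CPM in Male (0.47, SE 0.025, edgeR adjusted p = 1.06e-07), and 85, 87.9 and 84.9 CPM in WT against 90.9, 87.7 and 95.4 CPM in KD, which overlapped (0.09, SE 0.035, edgeR adjusted p = 0.0784). Kif20a was higher in both (0.41 and 0.19), as was the X-linked chromokinesin Kif4 (0.10 and 0.22). Kif15, which works beside Kif11, was lower in Male (-0.18, edgeR adjusted p = 4.16e-05), and Kif23 and Kif2c were called in neither comparison.

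Spindle assembly and cytokinesis genes were mostly higher: 4 of 6 in Male with 2 lower, and 5 in KD with none lower. The shares in Male were 66.7% and 33.3%, against 34.6% and 41.1% of genes with a mean of at least 10 CPM. In KD 83.3% were higher, against 24.9% of such genes. Tpx2 (ENSMUSG00000027469, chr2:152847964-152895321, plus strand), which activates Aurora A on the spindle, was at 121, 119.7 and 116.1 CPM in Female and 176.4, 173 and 170.9 CPM in Male (0.54, SE 0.025, edgeR adjusted p = 3.73e-08). It was at 177.9, 175.7 and 179.1 CPM in WT and 207.2, 215.8 and 217.2 CPM in KD (0.27, SE 0.024, edgeR adjusted p = 1.39e-05). Neither pair overlapped. The central-spindle and contractile-ring genes Anln, Ect2 and Prc1 were higher in Male by 0.44, 0.48 and 0.30 on the log2 scale. Of these, Anln was also higher in KD (0.15, edgeR adjusted p = 0.00481), Ect2 was not called (-0.02, edgeR adjusted p = 0.54), and Prc1 had an edgeR adjusted p of 0.0405 (0.09). The Prc1 call was lost when any single sample other than KD replicate 3 was left out, with an edgeR adjusted p of 0.0531 to 0.142.

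Nusap1 (ENSMUSG00000027306, chr2:119618298-119651244, plus strand), a protein that bundles spindle microtubules, had the largest change in KD. It was at 122.4, 121.5 and 120.8 CPM in WT and 169.9, 161 and 168 CPM in KD (0.45, SE 0.026, edgeR adjusted p = 6.11e-07), with the groups far apart. In Female it was at 172, 167.6 and 174.1 CPM and in Male at 164.3, 156.1 and 158.2 CPM, slightly lower (-0.10, SE 0.027, edgeR adjusted p = 0.00869), a call not kept among protein-coding genes. Its exons overlap those of Oip5 on the opposite strand, and whether counting used strand is not given in the sources used here. Racgap1, which pairs with Ect2 at the midzone, was at 252, 256 and 257.8 CPM in Female and 243.7, 246 and 242.7 CPM in Male (-0.06, edgeR adjusted p = 0.0201), and at 203.1, 206.4 and 209.2 CPM in WT and 214.8, 216.7 and 215.8 CPM in KD (0.07, edgeR adjusted p = 0.0315). The samples did not overlap. The first call was lost among protein-coding genes (log2 fold change -0.011, edgeR adjusted p = 0.672), with genes of a mean CPM of at least 1 (edgeR adjusted p = 0.0632) and without Female replicate 3 or Male replicate 3 (edgeR adjusted p of 0.0687 and 0.0619). The second was lost with no low-count filter (edgeR adjusted p = 0.0608), with the replicate number as a block (edgeR adjusted p = 0.0621) and when any single sample other than WT replicate 3 was left out (0.0501 to 0.141).

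The transcription factors of the program differed from most of their class between the sexes. Foxm1 (ENSMUSG00000001517, chr6:128362967-128376146, plus strand), the forkhead factor of G2, was at 178.2, 175 and 177.5 CPM in Female and 145.8, 149.9 and 141.7 CPM in Male, below Female in every sample (-0.28, SE 0.026, edgeR adjusted p = 6.55e-06). In WT it was at 116, 115.7 and 114.9 CPM and in KD at 140.7, 145.3 and 142.9 CPM, above WT in every sample (0.31, SE 0.024, edgeR adjusted p = 4.4e-06). Mybl2, which encodes B-MYB, overlapped between the sexes at 90.1, 93.9 and 90.7 CPM in Female and 90.6, 91.4 and 92.9 CPM in Male (0.00, edgeR adjusted p = 0.971). It was at 87.4, 91 and 89.9 CPM in WT and 93.7, 102.9 and 96.5 CPM in KD (0.13, SE 0.037, edgeR adjusted p = 0.0215), a call lost without WT replicate 1 (adjusted p = 0.0876) or WT replicate 3 (adjusted p = 0.0616). Mybl2 shares 21% of its 31-base subsequences with other genes.

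Set side by side, 20 members were higher in both Male and KD, which was 66.7% of those higher in Male and 58.8% of those higher in KD. Among the 20, the Male call of Aurkb and the KD calls of Cenpa and Prc1 were lost in most fits with 1 sample left out. Over all genes, 20.2% of those called higher in Male were also called higher in KD, and 30.2% were lower in KD, as was Ccnb2 alone among the members higher in Male. A further 9 members were lower in Male and higher in KD (75% of the 12 lower in Male; 25.5% over all genes lower in Male): Ncapd2, Ncaph, Mad2l1, Cenpk, Ndc80, Spc24, Nusap1, Racgap1 and Foxm1. Of these, Ncaph, Mad2l1, Nusap1 and Racgap1 lost the Male call among protein-coding genes, where 7 members in all were lower in Male. The KD calls of Cenpk and Racgap1 were lost in some fits with 1 sample left out. No member was lower in both, against 24.8% of all genes lower in Male. Of the 8 members not called between the sexes, 5 were higher in KD (11.4% over all such genes): Ncapg, Cdc25b, Ttk, Kif11 and Mybl2. The KD call of Mybl2 was lost without WT replicate 1 or WT replicate 3. These shares over all genes cover any level and were not computed for genes with a mean of at least 10 CPM. In that set 24.9% were higher in KD, against 16.8% of all genes tested. The 9 higher in Male and not called in KD were Ccnb1, Cdc25c, Aurka, Plk1, Plk4, Ube2c, Cenpe, Kif20b and Ect2. The comparisons share no samples, but the batches differ in handling, and each is a comparison within its own batch.

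**Figure D3:**
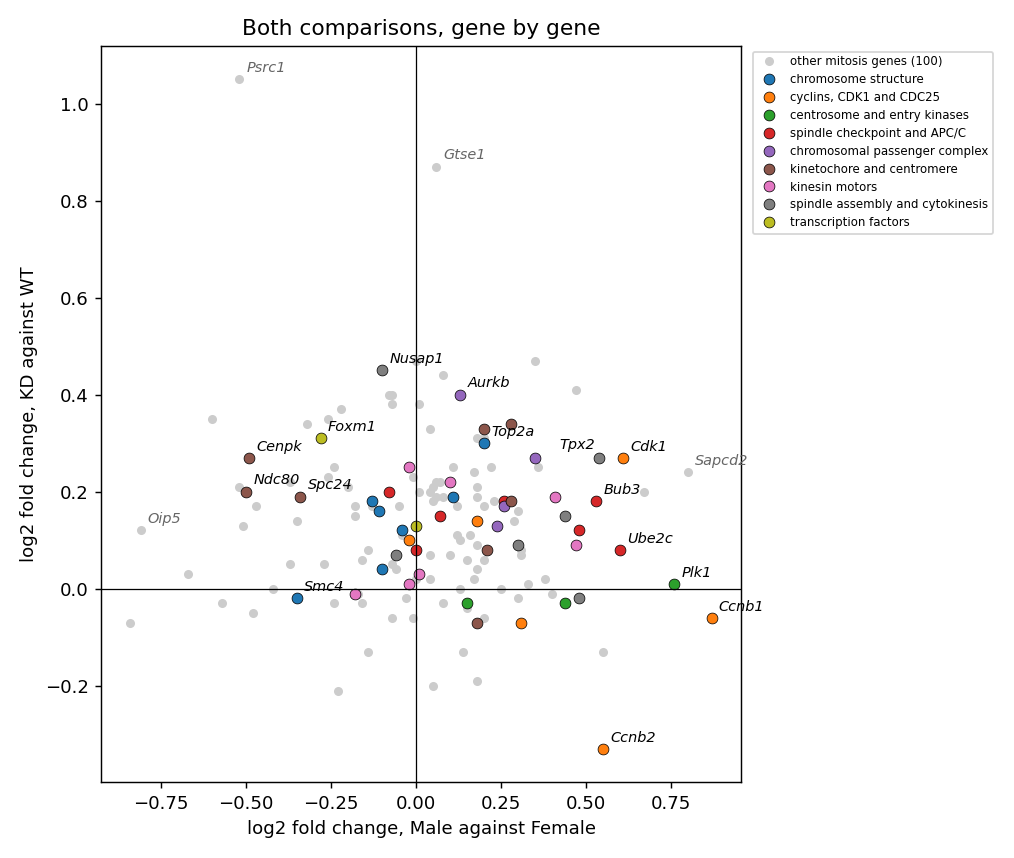
log2 fold change in Male against Female (x axis) and in KD against WT (y axis) for the 50 members, coloured by role, and for 100 other mitosis genes (grey). Ccnb1, Plk1 and Ube2c lie far to the right near 0 on the y axis, Ccnb2 lies at 0.55 and -0.33, and Ndc80, Cenpk, Spc24 and Foxm1 lie on the upper left.

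The difference between the comparisons was tested for each gene as (KD against WT) minus (Male against Female) in 1 edgeR fit of all 12 samples. It was called in 39 of 50 members, 21 with the KD change above the Male change and 18 below. Of all 21500 genes, 44.1% were called, 23.6% above and 20.5% below. That share covers genes of any level and was not computed for genes with a mean of at least 10 CPM, which were called more often in each comparison. Among protein-coding genes alone the split was 14 above and 24 below. By role, all 7 chromosome structure genes and both transcription factors were above, and all 3 entry kinases were below. The other roles were mixed or mostly uncalled: 1 of 6 cyclin, CDK1 and CDC25 genes was above and 4 below, 1 of 7 checkpoint genes above and 3 below, 4 of 8 kinetochore genes above and 2 below, 3 of 7 kinesins above and 2 below, 2 of 6 spindle assembly genes above and 4 below, and 1 of 4 passenger complex genes above. Ccnb1 and Ccnb2 had the lowest values, -0.91 (SE 0.040, edgeR adjusted p = 1.63e-10) and -0.87 (SE 0.049, edgeR adjusted p = 2.92e-09), followed by Plk1 at -0.73 (SE 0.043, edgeR adjusted p = 4.13e-09). Cenpk, Ndc80, Foxm1 and Nusap1 had the highest, 0.79, 0.72, 0.61 and 0.58. For the chromosomal passenger genes Incenp, Birc5 and Cdca8 and for Ccna2, Bub1b and Spc25 the difference was not called, with values between -0.09 and 0.09 and standard errors of 0.027 to 0.087. That does not show that the 2 changes were equal.

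Levels were compared between members as mean CPM per 1000 bases of the longest coding transcript. Top2a was the highest in every group, at 210.6 in Female, 242.3 in Male, 235.8 in WT and 290.3 in KD. Smc4 was the second in both sexes (162.1 and 127.1) and ranked 4 in WT and 6 in KD (87.2 and 86.2). Ccna2 was the second in WT and KD (103.8 and 114.2). Cdc25c was the lowest in Female, Male and KD (10.1, 12.4 and 10.5), and Cenpk in WT (9.21). The change in rank between Female and Male was marked for Ccnb1, which went from 33 (25.7) to 20 (47). Levels in the sex and knockdown tables were scaled separately and come from separate batches, so a difference between the tables is not a comparison of conditions. Replicates agreed closely: the median coefficient of variation of a member was between 1.47% in Male and 2.54% in KD, and Spc25 in Female had the highest at 11.3%.

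**Figure D4:**
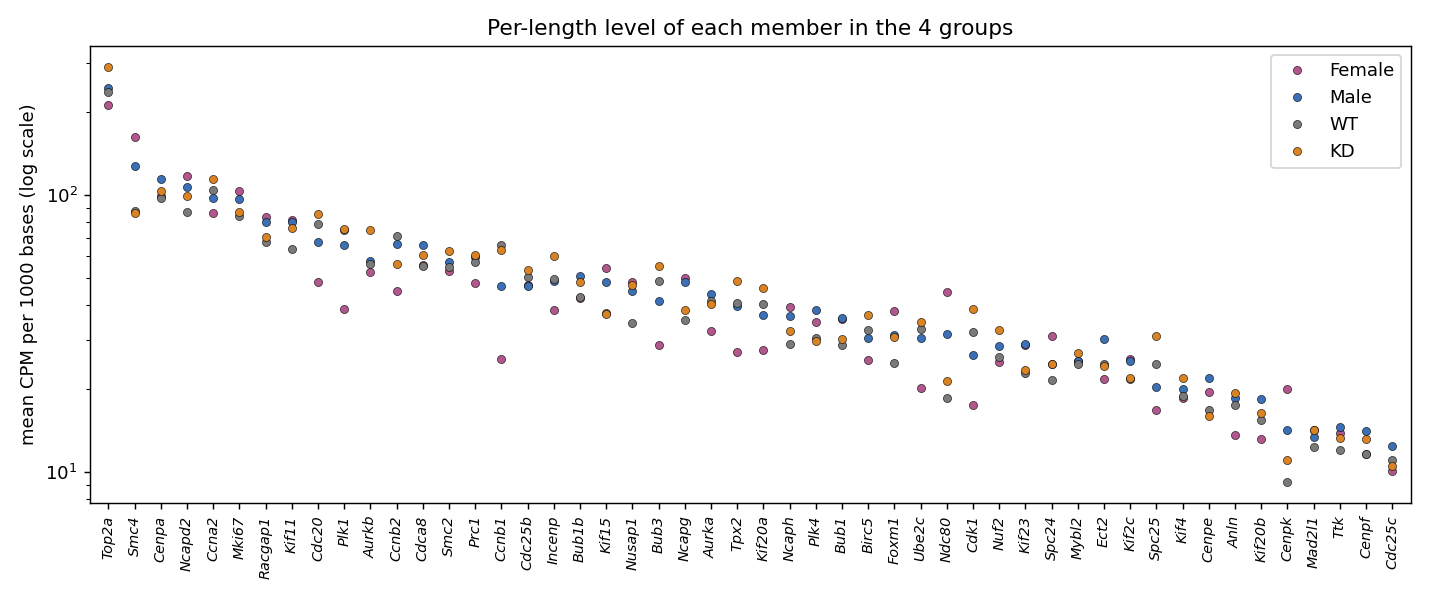
Mean CPM per 1000 bases of the longest coding transcript (log axis) of each member in the 4 groups, ordered by the mean of the groups. Top2a is highest in every group, and the Female points lie lowest of the 4 for Ccnb1, Plk1, Cdk1 and Ube2c and highest for Ndc80 and Cenpk.

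A further 100 genes of mitosis that are not among the 50 were examined as a list. The share called was 76% between the sexes and 58% between KD and WT. These were close to the 75.7% and 57.8% of genes with a mean of at least 10 CPM, so the list was not called unusually often. Of such genes, 34.6% were higher and 41.1% lower in Male, and 24.9% were higher and 32.9% lower in KD. Some of the 100 lay under 10 CPM. In Male, 43 were higher and 33 lower (23.5% and 26.3% of all genes), with a median log2 fold change of 0.05, and in KD 55 were higher and 3 lower (16.8% and 18.4% of all genes), with a median of 0.14. Sapcd2, a regulator of spindle orientation, was the highest in Male (0.80, SE 0.049, edgeR adjusted p = 2.95e-07), at 14.4, 15 and 14.3 CPM in Female and 25.2, 26.5 and 24.4 CPM in Male. Zwint of the outer kinetochore (0.67) and the phosphatase gene Cdkn3 (0.55) came next. The largest decreases in Male were of Anapc16 (-0.84), an APC/C subunit, Oip5 (-0.81), which loads CENP-A, and the X-linked cohesin gene Stag2 (-0.67). Other centromere and kinetochore genes were more often lower than higher in Male (15 and 9 of 29), whereas spindle, motor and cytokinesis genes were more often higher (16 and 3 of 22). Of 17 genes of the APC/C and its regulators (Fzr1, Fbxo5 and Ube2s included), 5 were higher and 5 lower in Male (29.4% each). In KD, 2 were higher and 2 lower (11.8% each). These shares were near or below those of all genes.

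In KD, Psrc1 and Gtse1 changed more than any of the 50 members. Psrc1, which encodes a spindle microtubule protein, was at 29.3, 27.9 and 29.7 CPM in WT and 59.8, 59.9 and 60.4 CPM in KD (1.05, SE 0.037, edgeR adjusted p = 1.75e-08), and was lower in Male than in Female (-0.52, SE 0.051, edgeR adjusted p = 1.05e-05). Gtse1, a G2 and S phase protein that binds microtubules and p53, was at 86.7, 89.9 and 84.3 CPM in WT and 156.3, 157.9 and 161.5 CPM in KD (0.87, SE 0.030, edgeR adjusted p = 1.54e-08). KD lay far above WT in both. Ccnf, cyclin F, was the third (0.47, SE 0.024, edgeR adjusted p = 2.28e-07). The 3 lower in KD were Cdc27 (-0.21), Cenpw (-0.19) and Anapc4 (-0.13).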

How the data were processed

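The 12 libraries, 3 in each of 4 groups of activated CD8+ T cells, were stranded ribosome-depleted total RNA preparations, per the labels' protocols. The authors deposited whole-number counts per gene in 2 tables, the sexes in one and the electroporated cells in the other, and each library has its own total. The submitters' processing notes name bcl2fastq 2.20.0, HISAT2, StringTie, DESeq2 and the build mm10. Which tool made the counts and whether strand was used is not given in the sources used here. For 13 members an exon overlaps a gene on the opposite strand, and reads of the pair cannot be told apart if strand was not used.

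Groups and replicate numbers came from the sample titles. Identifiers were matched to GENCODE M21 (55227 of 55487); the others held 2.89% to 3.45% of the counts. The 2 tables were fitted separately by edgeR 4.0.16 (R 4.3.3; TMM, filterByExpr, quasi-likelihood test), with Benjamini-Hochberg adjustment over all genes tested and calls at an adjusted p under 0.05. Standard errors (SE) are on the log2 scale. The fit was tested on simulated counts with 200 genes changed by 1 on the log2 scale: for Male against Female (19795 genes) 80.5% were recovered and 4.17% of calls were false, and for KD against WT (19961 genes) 79% and 9.2%, above the nominal 5%, which bears on KD calls near the threshold. That simulation changed far fewer genes than were called in the data, and by more than any member changed. Its shares therefore do not measure how well member changes were recovered. The members and lists were chosen with earlier results of these data known. Values in every sample are given, in each role group, for the member with the highest mean CPM and those with the largest change in each comparison, and for Mki67, Top2a, Cdk1, Ccnb1, Plk1, Aurkb, Foxm1 and Mybl2. From the other mitosis genes, those with the 3 largest called changes in each direction are named. Spc24, Nuf2, Cenpk and Bub3 were added after their values were seen. Alternatives covered normalization, low-count filters, DESeq2 1.42.0, limma-voom (limma 3.58.1), protein-coding genes only, a threshold of 0.01, all 12 samples in 1 fit, leaving out each sample, and the replicate number as a block.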

Additional observations from a re-analysis of the deposited data

How the results depend on the processing

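Of the members called in the comparisons as reported, none changed sign in any alternative, and the numbers called stayed within 1.5 times. Among protein-coding genes only, 33 members were higher and 7 lower in Male, in place of 30 and 12. The difference between the comparisons was called above 0 in 14 and below 0 in 24, in place of 21 and 18. In Male against Female, Mki67 moved from -0.10 to -0.044 and Ncaph from -0.11 to -0.053. Mad2l1 moved from -0.083 to -0.029 and Racgap1 from -0.064 to -0.011. These members and Nusap1 lost the lower call, and Bub1, Ttk and Kif23 gained a higher one. Small differences between the sexes thus depend on this setting. The members' median in Male against Female was 0.232 there, 0.196 with genes of a mean CPM of at least 1, 0.156 with all 12 samples in 1 fit, and 0.160 to 0.180 with 1 sample left out. In KD against WT it was 0.173 with upper-quartile factors, 0.137 with no low-count filter, 0.151 with a mean CPM of at least 1, 0.152 among protein-coding genes and 0.135 to 0.149 with 1 sample left out. With the replicate number as a block, 42 members were called in Male against Female, and 32 in KD against WT in place of 35, Cenpa, Prc1 and Racgap1 being lost; the medians were 0.178 and 0.143. Deviations of same-numbered samples correlated between -0.0399 and 0.0206, so the numbers do not show a pairing. Changes of sign were limited to members not called. In Male against Female these were, among protein-coding genes, Ncapg (0.012), Cdc25b (0.037), Kif11 (0.037) and Kif2c (0.030); with a mean CPM of at least 1, Cdc25b and Kif11 (0.001 each); with no filter, Bub1 (-0.009), Kif23 (-0.003) and Mybl2 (-0.013); with all 12 samples, Bub1 (-0.017), Kif23 (-0.010) and Mybl2 (-0.021); and with 1 sample left out, Bub1 (-0.011 to 0.016), Kif23 (-0.021 to 0.035) and Mybl2 (-0.019 to 0.019). In KD against WT they were, with upper-quartile factors, Smc4 (0.015), Plk4 (0.00058), Kif15 (0.022) and Ect2 (0.006); among protein-coding genes, Kif15 (0.0003); and with 1 sample left out, Smc4 (-0.030 to 0.009), Plk1 (-0.030 to 0.035), Kif15 (-0.028 to 0.017) and Kif2c (-0.017 to 0.029). The cause was not tested. On the gene's strand alone 56.5% of member promoters held a CHR (11.6% of all) and 52.2% a CCAAT box (21.1% of all). From 100 bases before the start, the shares were 67.4% (8.59%) and 58.7% (23.4%).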

Other observations

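Genes of the preceding phases were measured with a list of 36 DNA replication and G1/S genes. In KD against WT, 27 were higher and 1 lower by edgeR adjusted p under 0.05 (16.8% and 18.4% of all genes), with a median log2 fold change of 0.18. In Male against Female, 11 were higher and 18 lower (23.5% and 26.3% of all genes), with a median of -0.09. Of genes with a mean of at least 10 CPM, 24.9% were higher and 32.9% lower in KD, and 34.6% and 41.1% in Male. The list's shares in Male, 30.6% higher and 50% lower, were not far from these. Mcm7, a subunit of the replicative helicase, averaged 473.6 ± 5.38 CPM in Female and 339.1 ± 4.67 CPM in Male (SD, n = 3 each; log2 fold change -0.48, SE 0.019, edgeR adjusted p = 1.16e-08), whereas the helicase genes Mcm2, Mcm3, Mcm4 and Mcm5 were higher in Male by 0.33, 0.27, 0.13 and 0.21. In KD all of these were higher, Mcm7 by 0.31 and the others by 0.15 to 0.20. The helicase gene Mcm6 is also in the list and its values are not given here, so the whole helicase is not covered. Tyms, thymidylate synthase, had the largest change of the list in KD (0.46, SE 0.032, edgeR adjusted p = 2.3e-06), and E2f2 the largest decrease in Male (-0.59, SE 0.024, edgeR adjusted p = 1.63e-08).

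A list of 25 genes held cell cycle brakes, genes of the DREAM complex and Mdm2, which acts against p53. Of the 25, 17 were lower and 5 higher in Male (26.3% and 23.5% of all genes). In KD 11 were higher and 8 lower (16.8% and 18.4% of all genes). The shares of genes with a mean of at least 10 CPM were 41.1% lower and 34.6% higher in Male, and 24.9% higher and 32.9% lower in KD. Log2 fold changes in the list ran from -1.17 to 1.17 in Male and from -1.71 to 0.63 in KD. The lowest difference, as the KD change minus the Male change, was -2.85. Rb1, the retinoblastoma gene, averaged 196.1 ± 2.02 CPM in Female and 110 ± 1.68 CPM in Male (SD, n = 3 each; log2 fold change -0.83, SE 0.023, edgeR adjusted p = 9.89e-10). The CDK inhibitor gene Cdkn2a averaged 50 ± 1.74 CPM in WT and 15.3 ± 0.663 CPM in KD (SD, n = 3 each; log2 fold change -1.71, SE 0.047, edgeR adjusted p = 4.01e-09), and its neighbour Cdkn2b fell from 28.9 CPM ± 1 (SD, n = 3) to 10.2 CPM ± 1.32 (SD, n = 3). Cdkn1a, Cdkn2c, Trp53 and Ccng1 were higher in KD by 0.46, 0.47, 0.37 and 0.63. For the genes named in KD, Cdkn2a included, the change between the sexes is not given here and may differ in direction. These genes were picked from their lists after their values were seen.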
